A study of Mus musculus with 9 samples.

Results

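The genes described here are 9 integrin subunits (Itga1, Itga2, Itga3, Itga6, Itgav, Itgb1, Itgb4, Itgb6 and Itgb8) and Cd44, 10 of the 23955 gene rows of a raw count table from mouse gut organoids. They are receptors of epithelial cells for the extracellular matrix, were listed with earlier results of these data known, and were found by gene symbol, each with exactly 1 row. Organoids are three-dimensional epithelial cultures grown from gut tissue, and RNA-seq was performed on 9 samples of organoid cultures in 3 groups of 3. All organoids came from mice with the APCmin/+ genotype, that is, with 1 mutated Apc allele, and all were grown with Noggin, EGF, bFGF, R-spondin1 and B27. The MIN group came from normal-appearing, APC-mutated gut epithelium beside the tumors, the Adenoma group from adenomatous polyps, and the Sulindac group consists of organoids prepared from adenomatous polyps and then treated with sulindac, a non-steroidal anti-inflammatory drug (NSAID). The dose and duration of sulindac, a vehicle for the untreated adenomas, and the age and number of mice are not given in the sources used here. No group lacks the Apc mutation, so the MIN samples are not wild type. The samples are described as biological replicates without saying which came from the same mouse. The p-values weigh group differences against the spread between these samples, which need not be the spread between mice.

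Integrins are receptors made of an alpha and a beta chain, and the pairing decides which matrix protein is bound. The alpha chains of Itga1 and Itga2 join the Itgb1 chain to bind collagens, and those of Itga3 and Itga6 bind laminins, the main proteins of the basement membrane under the gut epithelium. The Itga6 chain also joins that of Itgb4 in the hemidesmosome, which anchors the cell through plectin to keratin filaments. The Itgav chain joins those of Itgb6 or Itgb8, among others, to bind an Arg-Gly-Asp motif, including that of latent TGF-beta. Cd44 is a receptor for hyaluronan, a known Wnt target and a marker of crypt base and adenoma cells in the gut.

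The members' loci lie on 5 chromosomes, and those of Itga1 and Itga2 lie close together on the same strand of chromosome 13, with 21 kb and 1 annotated gene entry between them (GENCODE M21, GRCm38). Both fell in adenoma organoids, whereas Itgav rose, so the 250 bases before the start of these 3 genes are shown, as RefSeq gives them on GRCm38.p6, 5′ to 3′ on the minus strand for Itga1 (chr13:115101965-115102214) and Itga2 (chr13:114932101-114932350) and on the plus strand for Itgav (chr2:83724147-83724396).
Itga1: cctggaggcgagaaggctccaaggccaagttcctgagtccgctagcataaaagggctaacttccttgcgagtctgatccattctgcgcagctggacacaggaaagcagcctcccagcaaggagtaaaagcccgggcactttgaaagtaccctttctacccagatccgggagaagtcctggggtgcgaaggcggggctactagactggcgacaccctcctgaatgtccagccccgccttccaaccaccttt
Itga2: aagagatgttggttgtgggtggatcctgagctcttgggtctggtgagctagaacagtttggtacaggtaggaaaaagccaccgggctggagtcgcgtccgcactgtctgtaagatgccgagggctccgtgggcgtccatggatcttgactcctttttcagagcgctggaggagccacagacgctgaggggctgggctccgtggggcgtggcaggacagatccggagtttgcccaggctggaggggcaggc
Itgav: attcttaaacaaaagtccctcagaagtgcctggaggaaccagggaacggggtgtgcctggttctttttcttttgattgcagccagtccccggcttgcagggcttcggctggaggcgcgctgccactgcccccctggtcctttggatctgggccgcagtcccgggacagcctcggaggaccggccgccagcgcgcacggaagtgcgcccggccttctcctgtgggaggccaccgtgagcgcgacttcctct
Capitals would mark 3 motifs searched on both strands, and none falls in these stretches. The motifs were CTTTGAT, the core bound by TCF/LEF factors of the Wnt pathway, TGACTCA, bound by AP-1, and GGGCGG, the GC box. The search window also held the 50 bases after the start, where Itga2 and Itgav each had 1 GC box and Itga1 had 0. Over windows of this length for all 32851 RefSeq promoters, 3.73% held the TCF/LEF core, 5.20% the AP-1 motif and 35.7% the GC box. Promoters of 8 of the 10 members were matched by symbol, and 0 TCF/LEF cores and 0 AP-1 motifs were found in them, which says only that these letters are not in these windows. Itga6 and Itgb4 were not matched. The files were made on mm9, and sequences were joined to them by symbol only.

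The libraries held between 30881206 and 48412477 counts. Values are given as CPM, that is, read counts scaled to a common library size after TMM normalization, and 3 counts, the limit that a count of 0 allows, come to between 0.0641 and 0.1 CPM, which covers counting error only. Genes that passed edgeR's low-count filter were compared by its quasi-likelihood test with Benjamini-Hochberg adjustment over all genes tested, and a gene is called higher or lower at a false discovery rate (FDR) of 1%. Fold changes are log2 values with their standard error (SE). The libraries MIN 3 and Adenoma 3 stood apart from the other samples of their groups, with a chi-square per gene of 69.1 to 77.0 against 19.4 in MIN and 73.9 to 81.7 against 20.7 in Adenoma. All 7 epithelial markers, such as Epcam and Cdh1, were detected in every sample, and their summed level was 5565 to 8073 CPM in MIN, 3340 to 4351 in Adenoma and 4582 to 5500 in Sulindac. Of these 7 markers, 5 were lower in Adenoma than MIN. The 8 leukocyte markers summed to 54.8 to 89.3 CPM in MIN, 2.57 to 5.53 in Adenoma and 4.13 to 6.57 in Sulindac, nearly all of it Lcp1, which epithelial cells can also express, while Ptprc had at most 8 counts and Itgb2, the leukocyte beta chain, at most 3. The 9 mesenchymal and endothelial markers summed to 4.33 to 4.71 CPM in MIN, 2.39 to 3.41 in Adenoma and 1.01 to 1.34 in Sulindac, with Col1a2 and Col3a1 at 0 in all 9 samples. Most of the MIN sum was Pdgfrb, a receptor of pericytes and other stromal cells, with 127 to 176 counts in MIN and 0 or 1 in every other sample. Of the 5 tested between Adenoma and MIN, Pdgfrb and the endothelial Pecam1 (15 to 18 against 2 to 4 counts) were called lower, and the fibroblast gene Pdgfra (5 to 8 against 25 to 39 counts) and the muscle gene Des (0 or 1 against 12 to 33 counts) were called higher. The part of these markers in the results was not tested. In bulk RNA, fewer cells expressing a gene and less of its RNA per cell cannot be told apart.

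Of the 10 members, 9 passed the filter in each comparison and Itgb8 in none. Between Adenoma and MIN, 2 members were higher (Itgav and Itgb4), 3 were lower (Itga1, Itga2 and Itgb6) and 4 were not called, beside 18.5% of the 13744 genes tested that were called higher and 20.1% called lower. Between Sulindac and Adenoma, 3 members were higher (Itga3, Itgav and Itgb6) and 0 were lower, beside 8.32% higher and 9.10% lower of 12962 genes. By edgeR, 1 member, Itga1, was lower there at an unadjusted p under 0.05, and DESeq2 called 0 lower. Between Sulindac and MIN, 4 members were higher (Itga3, Itga6, Itgav and Itgb4) and 2 were lower (Itga1 and Itga2), beside 23.0% higher and 26.8% lower of 13551 genes. The median log2 fold change of the 9 members was 0.11, 0.07 and 0.32 in these comparisons, against -0.01, -0.01 and -0.03 over all genes tested. The comparisons share samples and are not independent of each other.

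**Figure D1:**
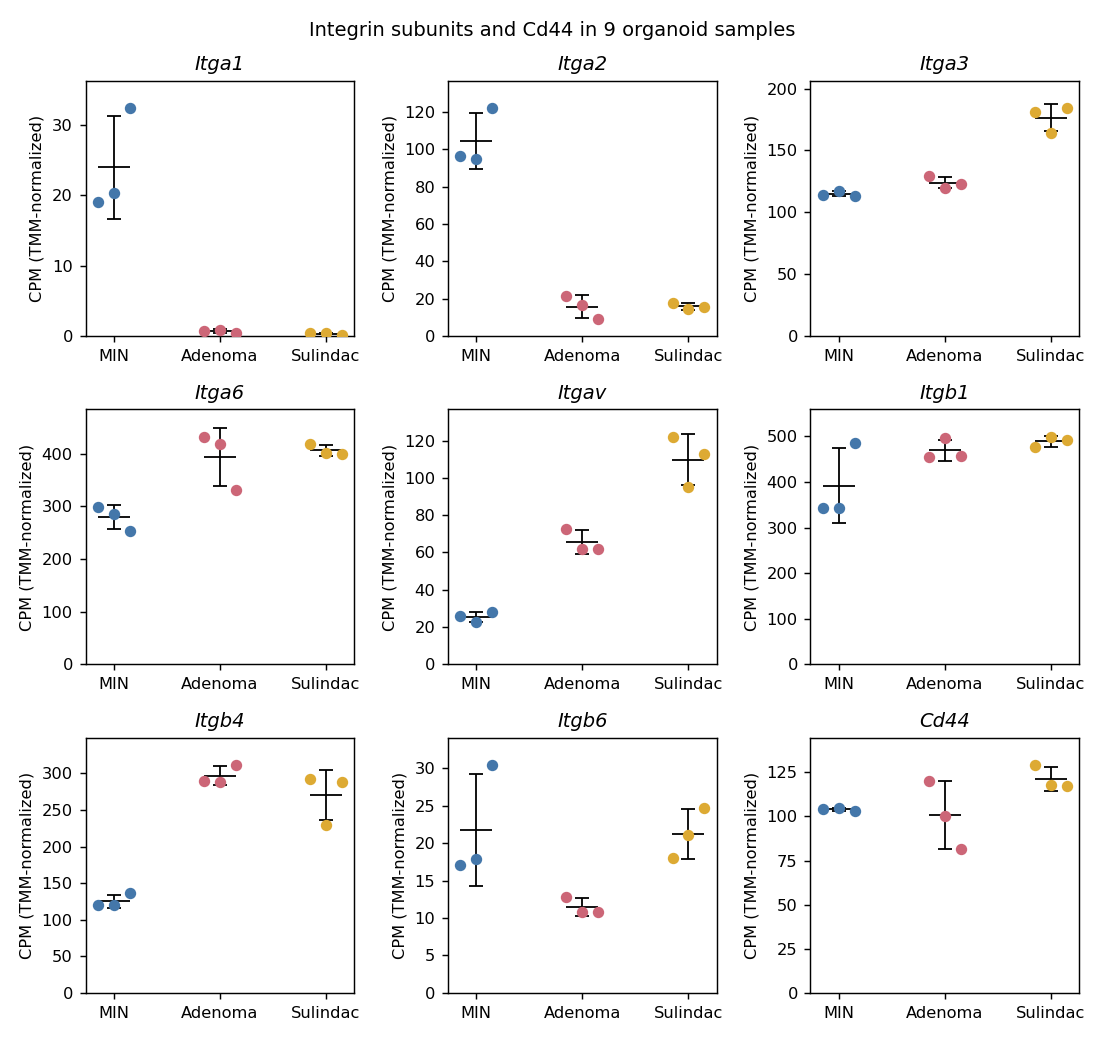
CPM of the 9 members that passed the filter (vertical axes, linear from 0) in the MIN, Adenoma and Sulindac samples. Points are samples, in replicate order from left to right, and black lines give the mean and SD of 3. Itga1 and Itga2 are low in all 6 adenoma-derived samples, Itgav climbs from MIN through Adenoma to Sulindac, and Itgb6 is lowest in Adenoma.

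Against MIN, the collagen receptor chains had the largest changes of the 9 members tested. Between Sulindac and Adenoma the change of Itga1 was also the largest but was not called, and the log2 fold change of Itga2 was 0.02. Itga1, which pairs with Itgb1 to bind collagens such as the type IV collagen of basement membranes, stood at 19.1, 20.4 and 32.4 CPM in the MIN samples. Its level was 0.702, 0.922 and 0.463 CPM in Adenoma and 0.367, 0.428 and 0.204 CPM in Sulindac, or 16 to 33 and 7 to 14 counts. It was thus low in every adenoma-derived sample but above the limit of the depth. The MIN samples did not overlap with the others. Itga1 was 34.2-fold lower in Adenoma than MIN (log2 fold change -5.10, SE 0.32, edgeR adjusted p = 3.48e-06) and 72-fold lower in Sulindac than MIN (-6.17, SE 0.32, adjusted p = 1.07e-06). The 3 Sulindac samples also lay below the 3 Adenoma samples, but this difference was not called (log2 fold change -1.06, SE 0.41, edgeR adjusted p = 0.079). Leaving out any 1 sample kept the call between Adenoma and MIN, with log2 fold changes from -5.35 to -4.82. Exons of Itga1 share 685 bases with the overlapping protein-coding gene Gm49395. Of the 50-base stretches of Itga1, 5.5% occur in transcripts of 485 other genes, most often Gm49395, so reads could be split between them.

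Itga2, the other collagen-binding alpha chain, was measured at 96.6, 95.0 and 122 CPM in MIN. In Adenoma it stood at 21.6, 16.5 and 9.19 CPM and in Sulindac at 17.9, 14.2 and 15.7 CPM. The lowest MIN sample thus exceeded the highest adenoma-derived sample, and the 2 adenoma groups overlapped. The level was 6.61-fold lower in Adenoma than MIN (log2 fold change -2.73, SE 0.28, edgeR adjusted p = 6.19e-05) and 6.57-fold lower in Sulindac than MIN (-2.71, SE 0.13, adjusted p = 6.49e-07). Between Sulindac and Adenoma the log2 fold change was 0.02 (SE 0.28, edgeR adjusted p = 0.966), and it was -0.26 without Adenoma 3. Without that sample the fall from MIN to Adenoma was -2.45 on the log2 scale, still called.

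The laminin-binding alpha chains did not fall with them. Itga3, whose chain pairs with that of Itgb1 and binds the laminins of epithelial basement membranes, stood at 114, 117 and 113 CPM in MIN, 129, 120 and 123 CPM in Adenoma and 181, 164 and 184 CPM in Sulindac. All Sulindac samples lay above all others. The Adenoma samples lay just above the MIN samples, with a log2 fold change of 0.11 that was not called (SE 0.09, edgeR adjusted p = 0.336). Sulindac samples were 1.43-fold higher than Adenoma (log2 fold change 0.52, SE 0.10, edgeR adjusted p = 0.00431) and 1.53-fold higher than MIN (0.62, SE 0.08, adjusted p = 0.000201). The call against Adenoma was lost, at edgeR adjusted p-values of 0.0107, 0.0179, 0.0236 and 0.0245, without Adenoma 1, Adenoma 2, Sulindac 1 or Sulindac 3, while the log2 fold change stayed between 0.49 and 0.58 over all 6 leave-outs.

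Itga6, the alpha chain of both an Itgb1 receptor and the hemidesmosome receptor, was measured at 299, 285 and 254 CPM in MIN, 432, 418 and 331 CPM in Adenoma and 419, 401 and 399 CPM in Sulindac. No MIN sample reached the lowest of the adenoma-derived samples. The rise from MIN to Adenoma was 1.41-fold and not called (log2 fold change 0.50, SE 0.14, edgeR adjusted p = 0.0134). With same-numbered samples paired as a block it was called (0.49, edgeR adjusted p = 0.00766), and so it was without Adenoma 3 (0.61, adjusted p = 0.00229) and by DESeq2 (0.49, adjusted p = 0.00281). Sulindac samples were 1.45-fold higher than MIN (log2 fold change 0.54, SE 0.09, edgeR adjusted p = 0.000967) and stayed called in every leave-out. Against Adenoma, the log2 fold change of Sulindac was 0.05 (edgeR adjusted p = 0.785). Gene-level counts do not separate the splice forms of the Itga6 tail, and 4.88% of the gene's 50-base stretches occur in another annotated gene, Gm29397.

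Itgb4, the hemidesmosome beta chain with a long cytoplasmic tail that binds plectin, rose in adenoma. Its level was 120, 120 and 136 CPM in MIN, 290, 288 and 311 CPM in Adenoma and 292, 230 and 288 CPM in Sulindac. The MIN samples lay apart from all 6 others. Itgb4 was 2.37-fold higher in Adenoma than MIN (log2 fold change 1.25, SE 0.10, edgeR adjusted p = 1.8e-05) and 2.15-fold higher in Sulindac than MIN (1.11, SE 0.11, adjusted p = 5.01e-05), and neither call was lost in any leave-out. Between Sulindac and Adenoma the groups overlapped and the log2 fold change was -0.13 (SE 0.12, edgeR adjusted p = 0.457). An antisense gene, B230344G16Rik, shares 537 exon bases with Itgb4, and the strand setting of the counting is not given in the sources used here, so its reads cannot be told apart from those of Itgb4 in these bases.

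The intracellular and membrane partners of this receptor did not rise with it. Plec, which encodes plectin, stood at 146, 144 and 228 CPM in MIN, 104, 86.7 and 77.5 CPM in Adenoma and 148, 100 and 128 CPM in Sulindac. Dst, whose epithelial product is another hemidesmosome linker, stood at 57.4, 57.4 and 66.1 CPM in MIN, 15.8, 11.3 and 10.9 CPM in Adenoma and 28.8, 18.2 and 27.9 CPM in Sulindac. Both were lower in Adenoma than MIN, with log2 fold changes of -0.95 for Plec (edgeR adjusted p = 0.00358) and -2.25 for Dst (adjusted p = 8.4e-06), opposite in sign to Itgb4. Dst was higher in Sulindac than Adenoma by 0.99 on the log2 scale (edgeR adjusted p = 0.0099). It remained lower than MIN by 1.27 (log2 fold change -1.27, edgeR adjusted p = 0.000272). Gene-level counts do not separate the epithelial product of Dst from its other products. The tetraspanin Cd151, a membrane partner of laminin-binding integrins, was not called in any comparison (103 to 139 CPM over all 9 samples), and Col17a1, a transmembrane collagen of skin hemidesmosomes, had at most 4 counts in any sample.

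Itgb1, the beta chain shared by most of these receptors, had the highest CPM of the members in every sample, from 344 to 499. It was measured at 344, 344 and 486 CPM in MIN, 455, 496 and 458 CPM in Adenoma and 476, 499 and 492 CPM in Sulindac. The sample MIN 3 lay among the adenoma-derived samples and the other two below them. No comparison was called, with log2 fold changes of 0.27 for Adenoma over MIN (SE 0.16, edgeR adjusted p = 0.184), 0.06 for Sulindac over Adenoma (SE 0.10, adjusted p = 0.638) and 0.32 for Sulindac over MIN (SE 0.14, adjusted p = 0.0702). The last turned on that sample, since without MIN 3 it was 0.50 (edgeR adjusted p = 0.000638) and called.

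**Figure D2:**
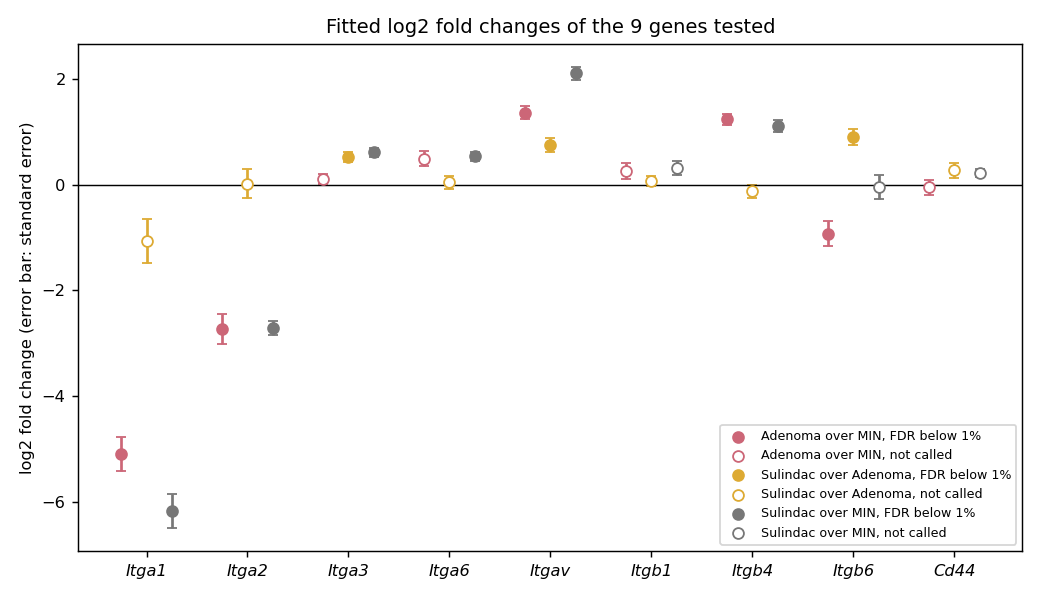
Log2 fold change (vertical axis) of the 9 members tested (horizontal axis) in the 3 comparisons, with the standard error from edgeR as the error bar. Filled points are called at an FDR of 1% and open points are not. Itga1 lies at -5.10 for Adenoma over MIN and at -6.17 for Sulindac over MIN, and Itgav is filled above 0 in every comparison.

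Itgav, the alpha chain of receptors for Arg-Gly-Asp ligands such as fibronectin, vitronectin and latent TGF-beta, was the member called higher in every comparison. It stood at 25.7, 22.6 and 28 CPM in MIN, 72.8, 61.9 and 61.9 CPM in Adenoma and 122, 95.2 and 113 CPM in Sulindac, and the 3 groups did not overlap. The rise from MIN to Adenoma was 2.58-fold (log2 fold change 1.37, SE 0.13, edgeR adjusted p = 3.1e-05), that from Adenoma to Sulindac was 1.69-fold (0.75, SE 0.13, adjusted p = 0.00309) and that from MIN to Sulindac was 4.31-fold (2.11, SE 0.12, adjusted p = 1.69e-06). Leaving out Adenoma 2, Sulindac 1 or Sulindac 3 ended the call between Sulindac and Adenoma (edgeR adjusted p = 0.0123, 0.0152 and 0.0164), while the log2 fold change stayed between 0.67 and 0.86. An antisense transcript, Gm13684, shares 634 exon bases with Itgav.

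Its epithelial partner Itgb6, the beta chain of a receptor that activates latent TGF-beta, followed another course. Itgb6 was measured at 17.1, 17.9 and 30.4 CPM in MIN, 12.8, 10.8 and 10.8 CPM in Adenoma and 18, 21.1 and 24.7 CPM in Sulindac. All Adenoma samples lay below all others, and the MIN and Sulindac samples overlapped. Itgb6 was 1.90-fold lower in Adenoma than MIN (log2 fold change -0.92, SE 0.23, edgeR adjusted p = 0.0091), close to the threshold. With same-numbered samples paired as a block the change was -0.88 and not called (edgeR adjusted p = 0.0156), and the call was also lost without MIN 2, Adenoma 1, Adenoma 2 or Adenoma 3 (-1.05, -1.01, -0.88 and -0.88, edgeR adjusted p = 0.0104, 0.0146, 0.0302 and 0.0375). Scaling by library size alone (-0.78, edgeR adjusted p = 0.0181) and requiring at least 10 counts in every sample (-0.93, adjusted p = 0.01) also ended the call. Without MIN 3 the change was called, at a log2 fold change of -0.61. Itgb6 was 1.86-fold higher in Sulindac than Adenoma (0.90, SE 0.15, edgeR adjusted p = 0.00294). That call was lost without Adenoma 2, Sulindac 2 or Sulindac 3 (edgeR adjusted p = 0.012, 0.0119 and 0.0152), at log2 fold changes of 0.86, 0.92 and 0.78. Sulindac and MIN differed by -0.04 on the log2 scale (SE 0.23, edgeR adjusted p = 0.899). Itgb8, the other beta chain of this kind, had 1, 6 and 0 counts in MIN and 0 counts in all 6 adenoma-derived samples, so no fold is given. Itgb5, another beta chain that pairs with that of Itgav, is no member and is given after its values were seen. It stood at 23.5, 25.3 and 27.8 CPM in MIN, 17.8, 22.5 and 23.9 CPM in Adenoma and 25.9, 32.0 and 30.6 CPM in Sulindac, in the range of Itgb6 or above it, and was called in no comparison (edgeR adjusted p = 0.172, 0.0279 and 0.138 for Adenoma over MIN, Sulindac over Adenoma and Sulindac over MIN).

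Cd44 was measured at 104, 105 and 103 CPM in MIN, 120, 100 and 81.7 CPM in Adenoma and 129, 118 and 117 CPM in Sulindac. The Adenoma samples lay on both sides of the tightly grouped MIN samples. The log2 fold change was -0.04 for Adenoma over MIN (SE 0.14, edgeR adjusted p = 0.813), 0.28 for Sulindac over Adenoma (SE 0.15, adjusted p = 0.178) and 0.22 for Sulindac over MIN (SE 0.08, adjusted p = 0.032), and none was called at an FDR of 1%. Counts per gene do not separate its splice variants. The sign between Adenoma and MIN changed with the scaling and with 1 Adenoma sample, since scaling by library size alone gave 0.093 and leaving out Adenoma 3 gave 0.086.

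The part of the alpha chains in each sample was then compared on counts per kilobase of the longest coding transcript in GENCODE M21. Itga6 made up 62.0%, 60.9% and 55.5% of the summed level of the 5 alpha chains in MIN, 71.5%, 73.0% and 68.5% in Adenoma and 63.0%, 65.4% and 62.3% in Sulindac. Itga2 made up 12.1% to 16.1% in MIN, 1.15% to 2.16% in Adenoma and 1.41% to 1.63% in Sulindac. Itga1 made up 1.56% to 2.78% in MIN and at most 0.0633% in the 6 other samples. Itgav made up 2.95% to 3.74% in MIN, 6.61% to 7.82% in Adenoma and 9.48% to 11.2% in Sulindac, without overlap. Itga3 lay between 18.6% and 25.5% in all 9 samples. Only the 5 member alpha chains enter these sums. Itga7, another laminin-binding alpha chain, is left out, though it had 22.4 to 51.5 CPM in Adenoma and 16.4 to 21.3 in Sulindac. These are shares, so each moves when another chain does, and they rest on the transcript length used. An alternative added after the data were seen used the median length of the coding transcripts. For Itgav this is 688 bases, against 7054 for the longest, so Itgav weighs far more in these sums. Its mean share became 23.3% in MIN, 43.2% in Adenoma and 53.2% in Sulindac, still without overlap. That of Itga6 became 42.4%, 42.8% and 32.8%, and that of Itga3 became 15.5%, 12.1% and 12.6%. The excess of Itga6 in Adenoma over MIN was thus not seen with these lengths, where the short length for Itgav lowers the other shares.

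**Figure D3:**
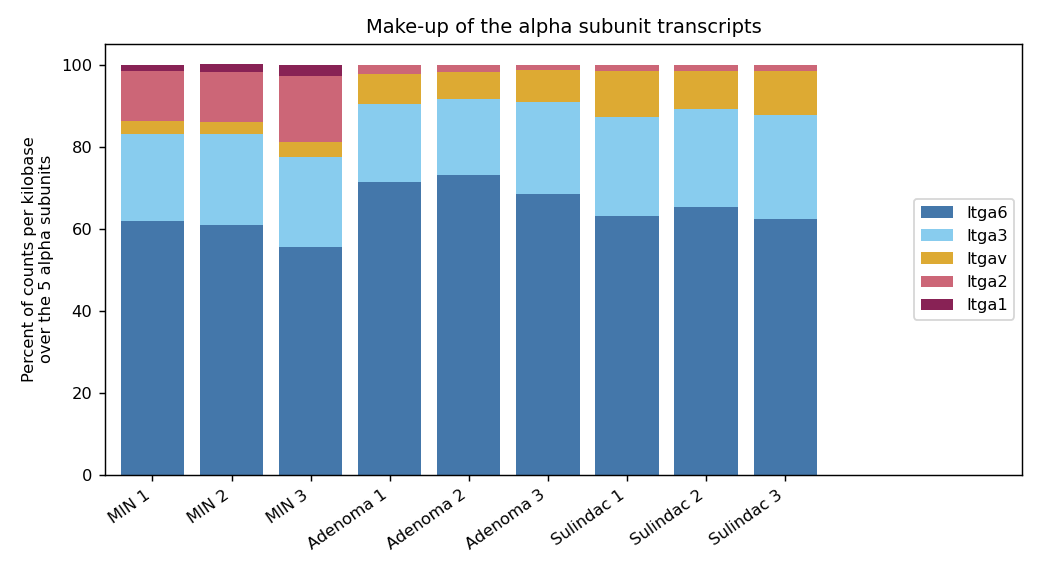
Share of each member alpha chain (vertical axis, percent of the summed counts per kilobase of the 5 member alpha chains, by the longest coding transcript) in each of the 9 samples (horizontal axis). Itga2 takes 12.1% to 16.1% of the bar in MIN and at most 2.16% in the adenoma-derived samples, and the Itgav segment is widest in Sulindac.

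On the same per-length scale, the order of levels in MIN was Itgb1 (mean 103 CPM per kilobase), Itga6 (64.8), Itga3 (23.6), Itgb4 (20.2), Cd44 (18.5), Itga2 (14.7), Itgb6 (4.53), Itgav (3.61), Itga1 (2.19) and Itgb8 (0.00605). The ranges of Itgb6 and Itgav overlapped and those of all other neighbours did not. In Adenoma, Itgb4 at 47.8 CPM per kilobase stood above Itga3 at 25.5, and Itgav at 9.29 stood above Itgb6 at 2.38 and Itga2 at 2.22, whose ranges overlapped. In Sulindac the order was the same as in Adenoma, with Itgb4 at 43.5 and Itga3 at 36.3 CPM per kilobase overlapping in range, and Itgav at 15.6. Levels between genes depend on the transcript length used.

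Ratios between chains within a sample do not depend on the scaling of libraries, and while their level depends on the transcript lengths, their fold difference between groups does not. Of 7 ratios planned, 5 were computed and those with Itgb8 were not. Two-sided exact permutation tests of 3 against 3 samples cannot go below p = 0.1, so no ratio could be called, and 15 tests were run. The ratio of Itgb6 to Itgav per kilobase was 0.972, 1.16 and 1.59 in MIN, 0.258, 0.255 and 0.256 in Adenoma and 0.217, 0.325 and 0.322 in Sulindac. It was lower in all adenoma-derived samples than in every MIN sample (exact permutation p = 0.1, adjusted 0.15, for both comparisons with MIN), and Adenoma and Sulindac overlapped (exact permutation p = 0.4, adjusted 0.462). Both chains were higher in Sulindac than Adenoma, and their log2 ratio differed by 0.14 between these groups (SE 0.19).

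The ratio of Itgb4 to Itga6 per kilobase was 0.279, 0.293 and 0.371 in MIN, 0.466, 0.479 and 0.652 in Adenoma and 0.485, 0.399 and 0.501 in Sulindac. That of Itgb4 to Itgb1 was 0.172 to 0.215 in MIN, 0.357 to 0.418 in Adenoma and 0.283 to 0.377 in Sulindac. Both ratios were higher in every adenoma-derived sample than in every MIN sample (exact permutation p = 0.1, adjusted 0.15). The ratio of Itga2 to Itga3 was 0.555 to 0.735 in MIN, 0.0513 to 0.114 in Adenoma and 0.0581 to 0.0676 in Sulindac. The ratio of Itga6 to Itga3 was 2.53 to 2.95 in MIN, 3.05 to 3.92 in Adenoma and 2.44 to 2.76 in Sulindac, so it was highest in Adenoma without overlap and overlapped between Sulindac and MIN.

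**Figure D4:**
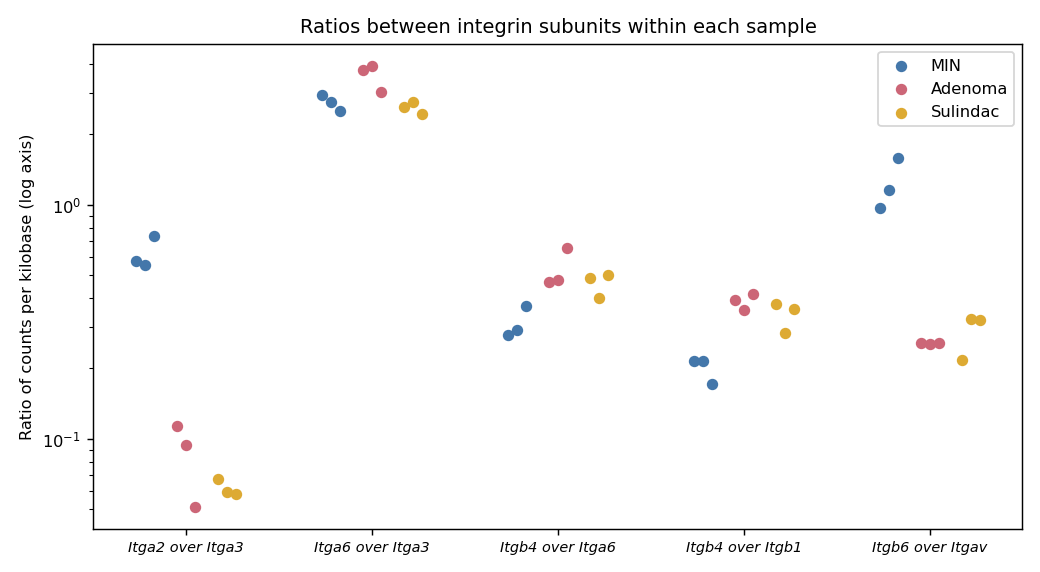
Ratio of counts per kilobase between chains of the same sample (vertical axis, log scale) for the 5 ratios computed (horizontal axis), with 1 point per sample coloured by group. The 3 Adenoma points of Itgb6 over Itgav lie between 0.255 and 0.258, against 0.972 to 1.59 in MIN.

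Of the other 18 integrin subunits of the mouse genome, Itgb5 and, in the adenoma-derived samples, Itga7 exceeded 10 CPM. Between Adenoma and MIN, 11 were tested, of which 2 were higher (Itga7 and Itgae) and 3 were lower (Itga5, Itga9 and Itgam), with a median log2 fold change of -0.25. Itga7, a laminin-binding alpha chain best known from muscle, had 2.48 to 5.75 CPM in MIN, 22.4 to 51.5 in Adenoma and 16.4 to 21.3 in Sulindac, and was 9.64-fold higher in Adenoma than MIN (edgeR adjusted p = 0.000161). Itga5, the alpha chain of the fibronectin receptor, was 7.75-fold lower in Adenoma than MIN (5.67 against 0.727 mean CPM, edgeR adjusted p = 1.79e-05). Itgam, a leukocyte alpha chain, had 148 to 159 counts in MIN, 4 to 13 in Adenoma and 0 to 5 in Sulindac, while its beta chain Itgb2 had 0 counts in every MIN sample. Itga9 had 18 to 46 counts in MIN and at most 3 in the other samples. Between Sulindac and Adenoma, edgeR called 0 of 8 in either direction, 1 was higher and 3 were lower at an unadjusted p under 0.05, and DESeq2 called 1 higher and 1 lower. Between Sulindac and MIN, 1 of 11 was higher (Itga7) and 4 were lower (Itga5, Itga9, Itgam and Itgb2l). Itgae and Itgb2l are named because of these small counts, after their values were seen.

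Among 23 genes for integrin ligands, 13 were tested, and 8 were higher and 2 lower in Adenoma than MIN, with a median log2 fold change of 2.12. Fn1, the fibronectin gene, had 3, 8 and 3 counts in MIN, 730 to 1094 in Adenoma and 574 to 1131 in Sulindac. Tgfb3, a TGF-beta whose latent form carries an Arg-Gly-Asp motif, had 2, 5 and 1 counts in MIN, 1049 to 1255 in Adenoma and 242 to 436 in Sulindac. Both were called higher in Adenoma than MIN, with edgeR adjusted p-values of 3.14e-07 for Fn1 and 9.42e-08 for Tgfb3, and no fold is given because the MIN counts lie near the limit of the depth. The 2 ligands lower in Adenoma were the laminin chains Lamb1 (log2 fold change -4.32, edgeR adjusted p = 7.53e-06) and Lamb3 (-1.29, adjusted p = 0.00289). Against Adenoma, the Sulindac samples had 3 higher and 2 lower ligand genes, among them Lamb3 (1.13, edgeR adjusted p = 0.000475), Tgfb3 (-1.56, adjusted p = 0.000514) and Col1a1, at 32 to 54 counts in Adenoma and 11 to 17 in Sulindac. Between Sulindac and MIN 9 were higher and 1 lower, among them Col4a2, a basement membrane collagen chain (4.97, edgeR adjusted p = 5.91e-05).

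Among the laminin chains, named together after their values were seen, Lama5 and Lamb2 were higher in Adenoma than MIN (log2 fold changes 2.62 and 3.60, edgeR adjusted p = 5.7e-05 and 1.87e-06). Lamb3 and Lamc1 were higher in Sulindac than Adenoma, as Itga3 was. Their log2 fold changes there were 1.13 and 0.89 (edgeR adjusted p = 0.000475 and 0.00243). Not called between these groups were Lama3 (0.69, edgeR adjusted p = 0.0923), Lama5 (0.29, adjusted p = 0.401), Lamb1 (0.32, adjusted p = 0.646) and Lamb2 (-0.51, adjusted p = 0.0228). For Lamb2 all Sulindac samples lay below all Adenoma samples.

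**Figure D5:**
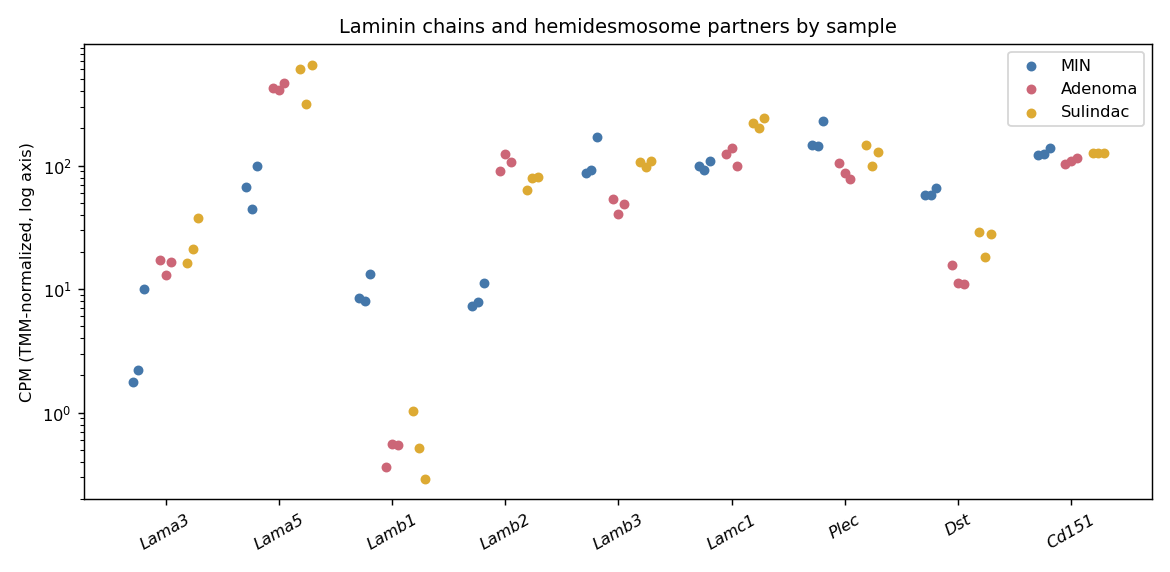
CPM (vertical axis, log scale) of 6 laminin chains and the 3 hemidesmosome partners that were tested (horizontal axis), with 1 point per sample coloured by group. Dst lies at 57.4 to 66.1 CPM in MIN and 10.9 to 15.8 CPM in Adenoma, and Lamb3 is lowest in Adenoma.

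Of 22 genes of the intracellular adhesion complex, 19 were tested, and 5 were higher and 3 lower in Adenoma than MIN, with a median log2 fold change of -0.01. The largest changes were those of Tns4, a tensin that binds the Itgb1 tail (2.02, edgeR adjusted p = 1.64e-05), Zyx, which encodes zyxin of mature adhesions (-1.55, adjusted p = 8.67e-06), and Rsu1, a partner of the integrin-linked kinase complex (1.18, adjusted p = 7.38e-05). The talin gene Tln1 and the kindlin gene Fermt1, whose products bind beta chain tails and activate integrins, are given after their values were seen and had log2 fold changes of -0.01 and -0.06 (edgeR adjusted p = 0.919 and 0.681). In Sulindac 1 was higher than in Adenoma, Vcl, which encodes vinculin (0.63, edgeR adjusted p = 0.00562), and 2 were lower, Rsu1 (-0.82, adjusted p = 0.00181) and Tns3 (-0.84, adjusted p = 0.00429). Between Sulindac and MIN 3 were higher and 5 lower, with the largest changes in Tns4 (1.57), Zyx (-1.32) and Tln2 (-1.08). Of the 4 hemidesmosome partners, 3 were tested, and 2 were lower and 0 higher in Adenoma than MIN. There edgeR found 0 higher at an unadjusted p under 0.05, and DESeq2 called 0 higher and 2 lower. Between Sulindac and Adenoma 1 partner was called higher (Dst) and 0 lower, and all 3 were higher at an unadjusted edgeR p under 0.05. Between Sulindac and MIN 0 were higher and 1 was lower (Dst).

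Of 15 genes around hyaluronan and Cd44, 11 were tested between Adenoma and MIN, and 4 were higher and 2 lower, with a median log2 fold change of 0.16. Msn, which encodes moesin, a linker of the Cd44 tail to actin, had 4, 6 and 10 counts in MIN, 1098 to 1523 in Adenoma and 765 to 1211 in Sulindac. Its relative Rdx, which encodes radixin, had 53, 28 and 46 counts in MIN and at most 1 in the other samples, and another relative, Ezr, the abundant ezrin of the gut brush border, stood at 426 to 714 CPM and was called in no comparison. Mmp14, a membrane protease able to cleave Cd44, stood at 4.85 to 8.10 CPM in MIN, at 111 to 121 in Adenoma and at 49.6 to 56.3 in Sulindac. It was 19.7-fold higher in Adenoma than MIN (edgeR adjusted p = 8.68e-07) and 2.17-fold lower in Sulindac than Adenoma (adjusted p = 0.000151). Hyal1, a lysosomal hyaluronidase, was higher in Sulindac than Adenoma by 1.37 on the log2 scale (edgeR adjusted p = 0.0043). Among the 3 hyaluronan synthases, Has3 had 0.214 to 1.38 CPM and Has1 and Has2 at most 5 counts in any sample. Esrp1, a splicing factor known to act on Cd44 transcripts, was lower in Adenoma than MIN (log2 fold change -0.52, edgeR adjusted p = 0.00404), and it, Ezr and the synthases are named after their values were seen.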

How the data were processed

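RNA-seq of 9 organoid samples was used. The authors deposited raw counts per gene symbol without normalization (mm9, Bowtie2 2.2.4 and RSEM per the submitters' processing notes). MIN 1 has columns for 2 runs and for their sum, which held in all 23955 rows and was used as 1 sample. Groups came from the sample labels.

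The deposited counts were filtered (filterByExpr), TMM-normalized and compared with edgeR 4.0.16 (glmQLFit, robust, glmQLFTest; R 4.3.3) at an FDR of 1%, with only the samples of the compared groups in each fit. The SE was obtained as the log2 fold change over the root of F. The script was tested on simulated data. Same-numbered Adenoma and MIN samples deviated together (correlations across genes 0.11 to 0.19 in 3 of 3 pairs, over 0.1) and were taken as paired in the block fit.

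The members and gene lists were chosen with earlier results of these data known. Outside the members, the 3 called genes of each list with the largest change in a comparison were named, and others as stated. One listed marker, Adgre1, has its older name Emr1 in the table. Alternatives were RLE or library-size scaling, other filters, 1 fit of all samples, the block, leave-outs, DESeq2 1.42.0 and an FDR of 5%. The authors' own comparisons were not used. One listed ligand gene is not reported here and is left out of the list's counts.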

Additional observations from a re-analysis of the deposited data

How the results depend on the processing

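Of the members' log2 fold changes recomputed under the alternatives, 356 kept their direction and their side of the threshold, 20 lost a call, 8 gained a call and 10 changed sign. The calls of Itga1, Itga2, Itgav and Itgb4 between Adenoma and MIN, and of Itga3, Itga6, Itgav and Itgb4 between Sulindac and MIN, held under every alternative that tested them. Requiring at least 10 counts in every sample removed Itga1 from the Sulindac comparisons and left 1 member lower there than in MIN. The count of higher members between Sulindac and Adenoma depended most on the processing, while that of lower members stayed at 0 throughout. Scaling by library size alone moved the median of all genes from -0.01 to -0.18 there (to 0.12 between Adenoma and MIN), the share of higher genes among those called from 47.8% to 23.3%, and the number of higher members from 3 to 1, with 603 genes higher and 1983 lower against 1078 and 1179. Itga3 (0.35, edgeR adjusted p = 0.0251) and Itgav (0.59, adjusted p = 0.0112) then lost their calls. DESeq2 gave 1778 genes higher, and an FDR of 5% gave 2034 higher and 2374 lower. Leave-outs gave 0 to 3 members higher, 423 to 1403 genes higher and 386 to 1488 lower, the fewest genes without Sulindac 3.

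The sign changed only for changes that were not called. With library size alone these were Cd44 between Adenoma and MIN (0.093) and Itga2 (-0.15), Itga6 (-0.12) and Itgb1 (-0.10) between Sulindac and Adenoma. Without Adenoma 3 they were Cd44 between Adenoma and MIN (0.086), Itga2 (-0.26) and Itga6 (-0.068) between Sulindac and Adenoma, and without Sulindac 1 Itga2 (-0.08) in that comparison and Itgb6 between Sulindac and MIN (0.07), which was 0.27 without MIN 3. Over all leave-outs these changes ranged from -0.19 to 0.086 for Cd44, from -0.26 to 0.32 for Itga2, from -0.068 to 0.13 for Itga6 and from -0.19 to 0.27 for Itgb6. The cause was not tested.

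The replicate block gave 3 members higher and 2 lower between Adenoma and MIN. The same numbers did not all deviate together in the other comparisons (correlations -0.07 to 0.25 and -0.03 to 0.40, in each 2 of 3 over 0.1), where the block gave 2 members higher between Sulindac and Adenoma, Itga3 not being called (0.52, edgeR adjusted p = 0.011), and 4 higher and 2 lower between Sulindac and MIN. Exact sign-flip tests of the paired ratios cannot go below p = 0.25. Levels in MIN were also taken with the median in place of the longest transcript length. They became 27.5 CPM per kilobase for Itga2, 24.6 for Itga3, 37.0 for Itgav, 173 for Itgb1, 6.67 for Itgb6 and 43.1 for Cd44. The median was below the longest length for each of these genes, from 4666.5 against 4861 bases for Itga3 to 688 against 7054 for Itgav. Depth limits Itgb8 and, in the adenoma-derived samples, Itga1.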

Other observations

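For each of the 9 members that passed the low-count filter over the 3 groups, the gene with the most similar pattern among 13892 genes was found by Pearson's r of log2(CPM + 0.5) over the 9 samples. The points share libraries and fall into 3 groups, so r mainly reflects differences between groups, and it is given as a description with no p. Itga2 was closest to Ocln, which encodes the tight junction protein occludin (r = 0.996), and Itga1 to Bche (0.997). Itgav was closest to Abcc5 (0.998), Itgb4 to Cav2, a caveolin gene (0.995), Itga6 to C77370 (0.987), Itga3 to Fam102a (0.986) and Itgb6 to Gadd45a, a DNA damage response gene (0.982). Itgb1 (Ppm1k, 0.969) and Cd44 (Luzp1, 0.936), the members that were called in no comparison, had the lowest closest r.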
